A study of Homo sapiens with 4 samples.

Results

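Transfer RNA for selenocysteine is charged in several steps, and the genes of those steps, of the machinery that places selenocysteine in proteins and of some of the resulting selenoproteins were followed in K562 cells with reduced DROSHA. The 10 genes were SEPHS2, SEPHS1, PSTK, SEPSECS, SECISBP2, EEFSEC, GPX1, GPX4, TXNRD1 and TXNRD2, picked by symbol out of 58037 genes in the deposited table. They were grouped around SEPHS2 because its change in this same comparison was already known, so all values here are descriptions and none is an independent test. K562 is a human erythroleukaemia cell line. The control cells were transduced with a non-specific CRISPR lentivirus and the knockdown cells with one against DROSHA, the nuclear ribonuclease that crops primary microRNA transcripts. Both were selected with puromycin at 2.5 ng/μl, used at passages 25 to 30 and grown in RPMI with fetal bovine serum, and total RNA was sequenced from 2 libraries of each. The labels do not say whether the knockdown cells were a clone or a mixed population, whether replicates were separate cultures, or how much selenium the medium held. The spread between libraries may therefore be technical.

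Selenocysteine is inserted at UGA, a codon that otherwise ends translation. Its tRNA is charged with serine, phosphorylated by PSTK and converted by SEPSECS, which uses selenophosphate made by SEPHS2. SECISBP2 binds the SECIS stem-loop in the 3′ UTR of a selenoprotein mRNA, and the elongation factor EEFSEC brings the charged tRNA to the ribosome. SEPHS2 is itself a selenoprotein, so it depends on the pathway that it feeds. Selenoproteins include the glutathione peroxidases GPX1 and GPX4, which reduce peroxides, and the thioredoxin reductases TXNRD1 and TXNRD2.

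The codon that defines these mRNAs is given in the coding strand of GENCODE 29 transcripts (GRCh38), 12 bases on either side, with the UGA that is read as selenocysteine in capitals (written TGA). For SEPHS1, the paralog without selenocysteine, the capitals mark the codon that aligned with it.
SEPHS2: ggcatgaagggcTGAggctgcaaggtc
SEPHS1: gaactgaagggcACAggctgcaaagtg
GPX1: gtggcgtccctcTGAggcaccacggtc
GPX4: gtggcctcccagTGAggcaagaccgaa
TXNRD1: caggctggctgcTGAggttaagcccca
TXNRD2: gtgacaggctgcTGAgggtaagcgcca
In SEPHS2 the UGA is codon 60 of 448, at chr16:30445548-30445550 on the minus strand. SEPHS1 had ACA, a threonine codon, at the aligned codon 29, and 297 of 391 aligned residues (76.0%) were identical between the paralogs. In both thioredoxin reductases the UGA has 1 codon between it and the stop codon.

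SEPHS2 mRNA was higher in both knockdown libraries than in both control libraries, and it was the 1 gene of the 10 that passed the authors' test. It held 1224 and 1155 normalised reads in the control libraries and 2526 and 2507 in the knockdown libraries, the deeper library given first in each pair. The libraries within a group lay close together and the groups did not overlap. Group means were 1189 ± 49.0 (SD, n = 2) and 2516 ± 13.4 (SD, n = 2). Behind these stood 1506 and 1060 reads in the control libraries and 2760 and 2039 in the knockdown libraries. The authors' deposited table gave it a log2 fold change of 1.08, a 2.11-fold difference, at an adjusted p of 4.5e-10. The standard error implied by that p was 0.148 and the 95% interval ran from 0.79 to 1.37. The ratios of each knockdown library to each control library ran from 1.03 to 1.13 on the log2 scale, a narrower range than that interval.

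**Figure D1:**
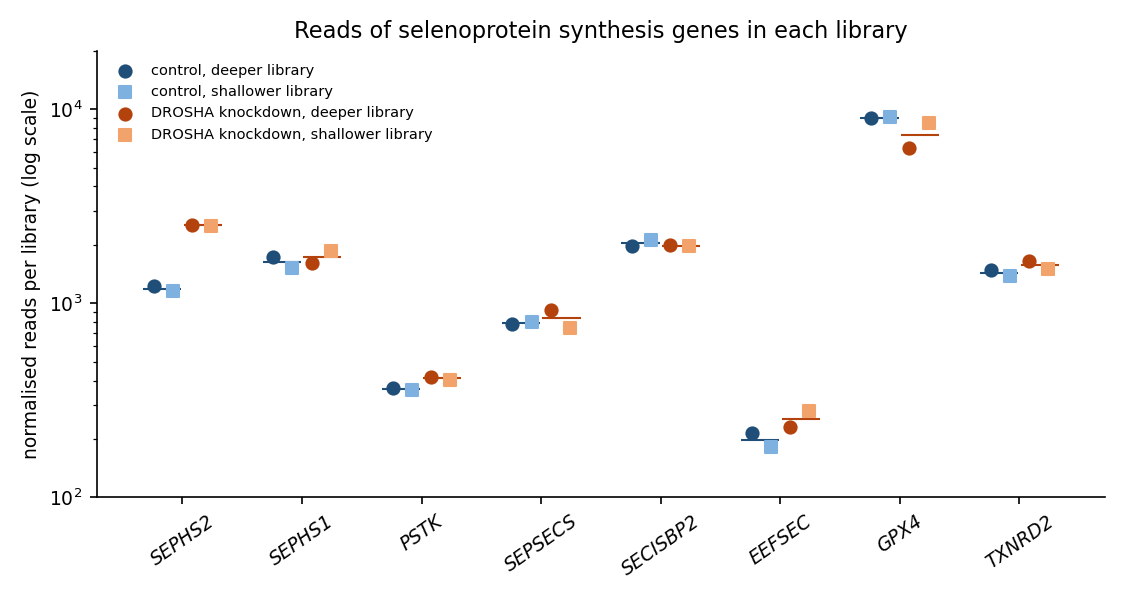
Normalised reads in each of the 4 libraries on a log axis for the 8 tested genes whose reads could be separated by library. Short lines mark group means. For SEPHS2 the knockdown libraries at 2526 and 2507 stand clear of the control libraries at 1224 and 1155, while for SEPHS1, SEPSECS and SECISBP2 the groups overlap.

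Reads per library were recovered from the deposited means, which are sums of whole reads divided by library size factors. The table does not state the direction of its fold changes. The sign for DROSHA was negative, and positive values were taken to mean higher in knockdown. In bulk RNA, a change in the share of cells and a change in RNA per cell cannot be told apart. DROSHA held 6107 and 6077 normalised reads in the control libraries and 2734 and 2770 in the knockdown libraries, a log2 fold change of -1.15 in the authors' deposited table. Size factors, the only measure of depth here, were 1.23 and 0.918 for control and 1.09 and 0.813 for knockdown. The libraries carried K562 markers. The 9 reported here, among them GATA1 and the embryonic globin HBE1, had means of 2492 to 156201 normalised reads, and 0 passed the authors' test. Of 6 markers of other cells, means ran from 5.27 for CD3E to 2755 for the epithelial EPCAM, with 0 called and 0 at a mean of 0.

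The authors' deposited table gave an adjusted p to 14231 genes, and of these 0.330% were called higher and 0.0211% lower. Of the 10 genes here, 9 were tested, 1 was called higher and 0 lower. GPX1 had too few reads for an adjusted p. SEPHS2 ranked 9 by adjusted p among all genes and 14 by fold change among the 47 called higher in the authors' deposited table. For the 9 tested genes here the log2 fold changes had a median of 0.10, against -0.03 over all tested genes. Of the 9, 6 were above 0, where 45.1% of all tested genes were. These figures include SEPHS2, whose rise was known beforehand.

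**Figure D2:**
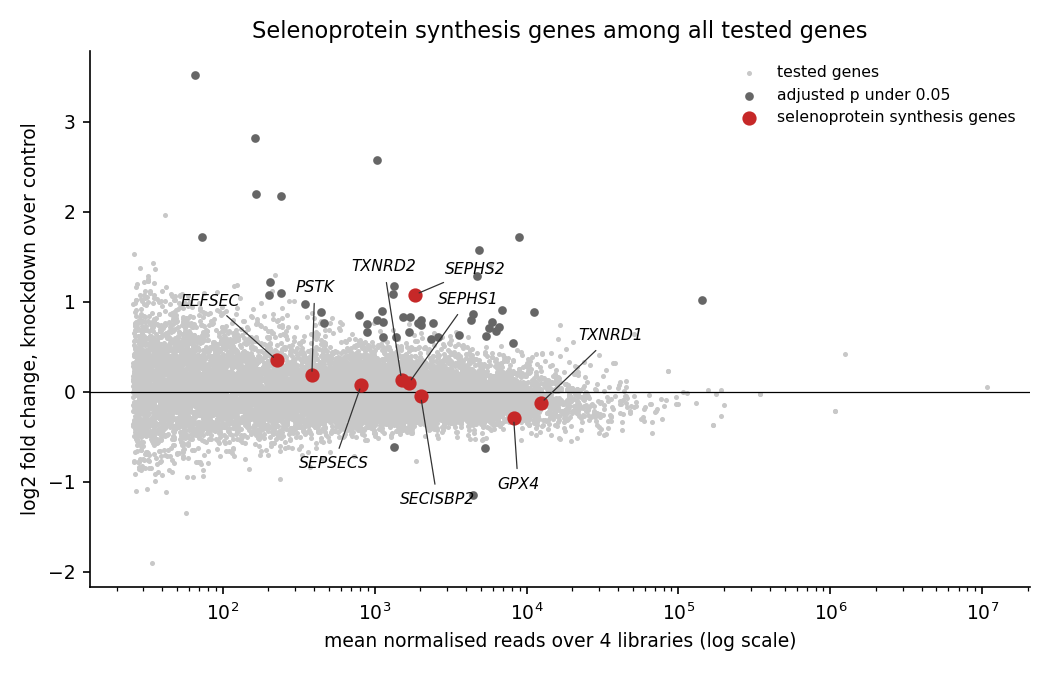
Log2 fold change against mean normalised reads (log axis) for the tested genes, with those at an adjusted p under 0.05 in dark grey and the 9 tested genes of selenoprotein synthesis in red. SEPHS2 at 1.08 lies among the called genes, and the other 8 lie between -0.29 and 0.35.

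Both knockdown libraries lay above both control libraries for 20.4% of the 10574 tested genes whose reads were recovered, up to a mean of 2500 normalised reads, and below them for 20.4%. Of the 8 tested genes here with recovered reads, 4 lay above, 1 lay below and 3 overlapped. The 1 below was GPX4, whose mean lies outside that range, and the other 7 of the 8 lie within it. SEPHS2 is 1 of the 4 above. The genes were grouped around its known rise, so its place is no independent addition to that count. An ordering of libraries without overlap was therefore common in these data.

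The paralog SEPHS1 did not pass the authors' test. It held 1728 and 1518 normalised reads in the control libraries and 1604 and 1870.0 in the knockdown libraries, so the groups overlapped. Its log2 fold change was 0.10 (adjusted p = 0.965 by the authors' deposited table). SEPHS1 lacks selenocysteine and does not make selenophosphate in the way SEPHS2 does. Its processed pseudogenes listed in the table had means of at most 2.06, and the SEPHS2 pseudogene SEPHS2P1 had a mean of 0, so few reads were listed on copies.

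The enzymes that act on the charged tRNA did not pass the test. PSTK, the kinase, held 366 and 358 normalised reads in control and 418 and 403 in knockdown. The groups did not overlap, and the log2 fold change was 0.18 (adjusted p = 0.931 by the authors' deposited table). SEPSECS, the synthase, held 786 and 805 in control and 927 and 746 in knockdown, so its deeper knockdown library was highest and its shallower one lowest. Its log2 fold change was 0.07 (adjusted p = 0.977 by the authors' deposited table). PSTK overlaps C10orf88 and IKZF5 on the opposite strand, and the strand setting of the counts is not given in the sources used here.

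The insertion factors likewise did not pass the test. SECISBP2 held 1964 and 2125 normalised reads in control and 1991 and 1963 in knockdown, which overlap. EEFSEC, with the lowest mean of the tested 9 at 226 normalised reads, held 215 and 182 in control and 231 and 278 in knockdown. Its log2 fold change of 0.35 (adjusted p = 0.858 by the authors' deposited table) was the next largest after SEPHS2, and its library ratios ran from 0.10 to 0.61 on the log2 scale. EEFSEC shares part of its extent with RUVBL1 on the other strand.

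Of the selenoproteins in the set, GPX4, which reduces lipid peroxides in membranes, was among the most abundant. It held 8998 and 9118 normalised reads in control and 6336 and 8471 in knockdown. Both knockdown libraries were below the controls but they differed from each other far more than the controls did, with an SD of 1509 against 85.1. The log2 fold change was -0.29 (adjusted p = 0.747 by the authors' deposited table), and it became -0.10 when the deeper knockdown library was left out and -0.52 when the shallower one was. GPX1, the cytosolic glutathione peroxidase, was scarcely detected, with 0 and 6 reads in control and 5 and 5 in knockdown. Its processed pseudogenes GPX1P1 and GPX1P2 were listed at 0. GPX1 lies on chromosome 3 from 49357171 to 49358600 and overlaps no other gene in GENCODE 29. The annotation used for the counts is not given in the sources used here.

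The thioredoxin reductases, which keep thioredoxin reduced in the cytosol (TXNRD1) and in mitochondria (TXNRD2), did not pass the test. TXNRD2 held 1489 and 1376 normalised reads in control and 1650.0 and 1499 in knockdown, a log2 fold change of 0.14 (adjusted p = 0.935 by the authors' deposited table). The lower knockdown library exceeded the higher control library only slightly. TXNRD1 had a mean of 12474 normalised reads and a log2 fold change of -0.12 (adjusted p = 0.931 by the authors' deposited table). Its reads could not be separated by library, since 7 combinations of whole reads gave its mean and fold change. Over these the control mean ran from 12852 to 13164 and the knockdown mean from 11784 to 12096.

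Levels per exon length spanned more than 3 orders of magnitude only because of GPX1, which was scarcely detected. The tested genes ran from 63.2 to 4077. Taken as mean normalised reads per kilobase of exon over all 4 libraries, GPX4 stood at 4077, TXNRD1 at 1860 and SEPHS2 at 726. SEPHS1 followed at 432, SECISBP2 at 205, TXNRD2 at 180 and SEPSECS at 131. The lowest were EEFSEC at 93.5, PSTK at 63.2 and GPX1 at 3.02. Exon lengths came from all GENCODE 29 transcripts of a gene, so unused long exons lower this level.

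**Figure D3:**
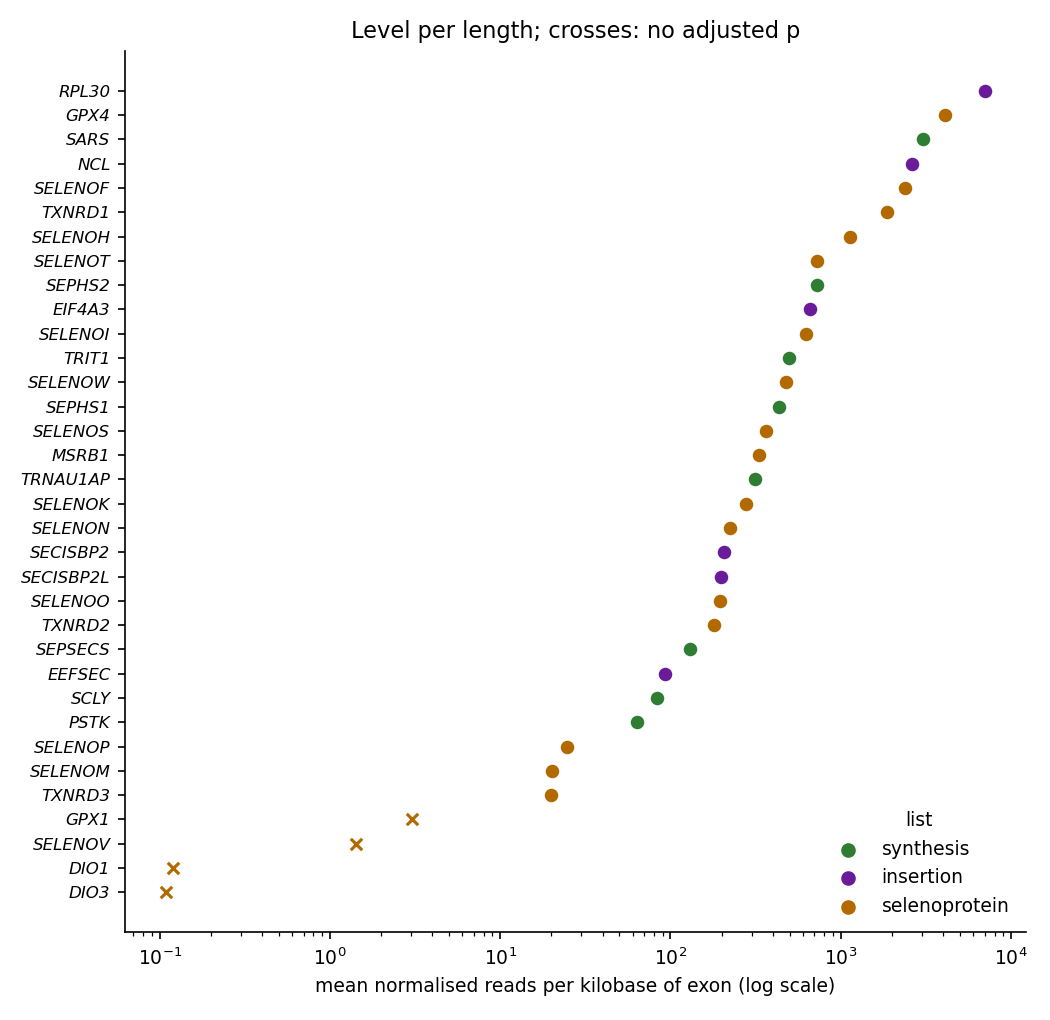
Mean normalised reads per kilobase of exon (log axis) for synthesis factors, insertion factors and selenoproteins with a mean above 0. Crosses mark genes with no adjusted p. GPX4 at 4077 is the highest selenoprotein, SEPHS2 at 726 lies in the upper range, and GPX1 at 3.02 lies with SELENOV, DIO1 and DIO3 below the tested genes.

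The wider family of 25 human selenoprotein genes held no other called gene. All 25 were in the table, 4 of them at a mean of 0 (GPX2, GPX3, GPX6 and DIO2), and 17 were tested. SEPHS2 was the 1 member called higher and 0 were called lower. Among all tested genes 0.330% were called higher and 0.0211% lower, so the lack of other calls says little about the family. Of the other 16, 4 were above 0 and 12 below, with a median log2 fold change of -0.11 against -0.03 for all tested genes. MSRB1, which reduces oxidised methionine, stood highest of these at 0.37 (adjusted p = 0.669), and SELENON, a membrane protein of the endoplasmic reticulum, lowest at -0.46 (adjusted p = 0.562 by the authors' deposited table). MSRB1 held 593 and 653 normalised reads in control and 854 and 755 in knockdown. SELENON held 1267 and 1019 in control and 715 and 955 in knockdown. The groups did not overlap for either gene.

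The small cytosolic SELENOW stood at -0.30 (adjusted p = 0.705) and SELENOS, which takes part in clearing misfolded proteins from the endoplasmic reticulum, at -0.22 (adjusted p = 0.873 by the authors' deposited table). SELENOH, SELENOT, SELENOI, SELENOF, SELENOO and TXNRD3 had log2 fold changes of -0.17, -0.12, -0.09, -0.05, -0.04 and -0.10 in the authors' deposited table. SELENOK and the secreted selenium carrier SELENOP stood at 0.08 and 0.08, and the thinly covered SELENOM at -0.27, in the authors' deposited table. Of the 15 tested selenoproteins other than SEPHS2 with recovered reads, 2 had both knockdown libraries above both controls, 6 had both below and 7 overlapped. The shares of 20.4% above and 20.4% below were measured over genes with a mean up to 2500 normalised reads. In that range 9 of the 15 fell, with 2 above, 3 below and 4 overlapping.

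**Figure D4:**
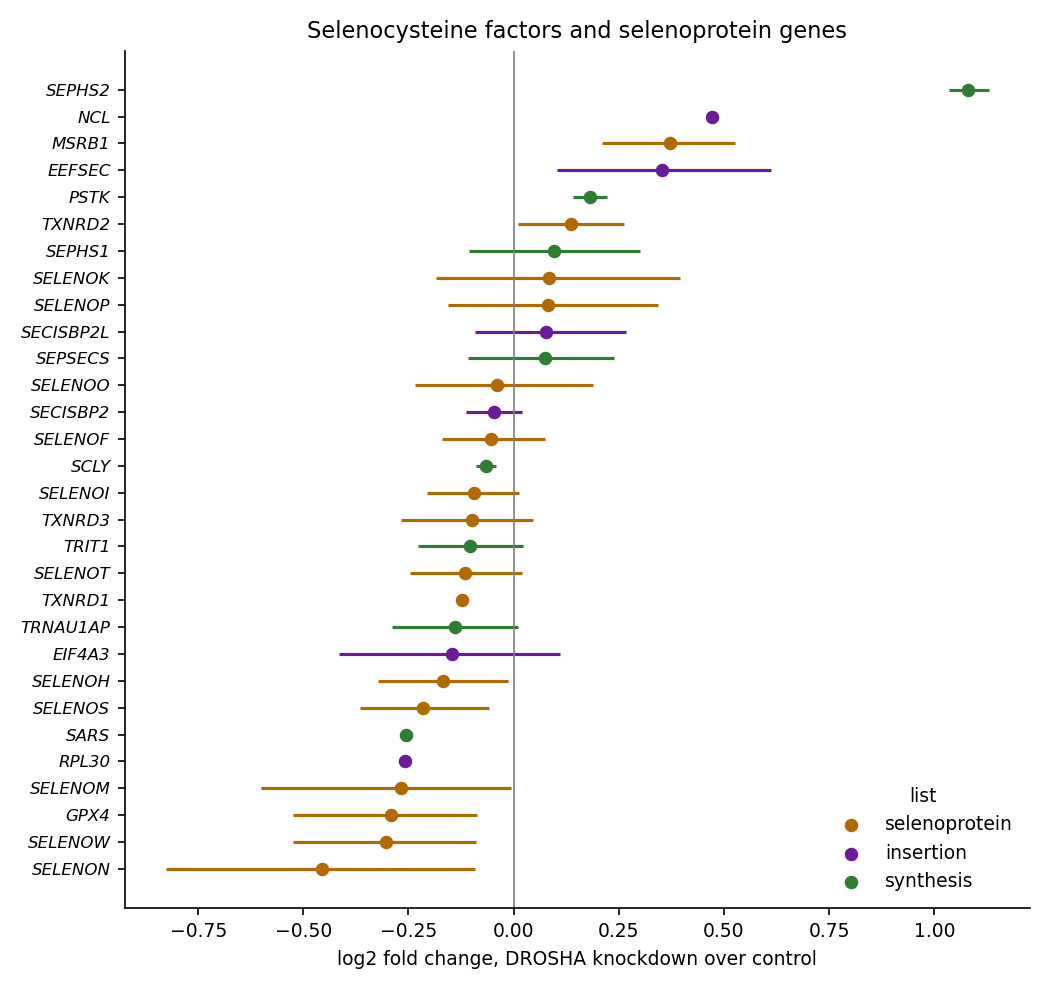
Log2 fold change (points) of tested synthesis factors, insertion factors and selenoproteins, with lines from the lowest to the highest ratio of a knockdown to a control library. Genes without a line had no recovered reads. SEPHS2 at 1.08 stands apart, and the remaining genes run from -0.46 for SELENON to 0.47 for NCL.

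The other factors that act before or beside these genes also gave 0 calls, where 0.330% of all tested genes were called higher and 0.0211% lower. Seryl-tRNA synthetase SARS, which charges the tRNA with serine, stood at -0.26, and selenocysteine lyase SCLY, which releases selenium for reuse, at -0.07 in the authors' deposited table. TRNAU1AP, which binds the selenocysteine tRNA, stood at -0.14 and TRIT1, which modifies it, at -0.10 in the authors' deposited table. Of the 8 tested synthesis genes, 4 were above 0 and 4 below, with a median of 0.0042. The 4 above were SEPHS2, SEPHS1, PSTK and SEPSECS, and the 4 below were SARS, SCLY, TRNAU1AP and TRIT1. Of the 6 insertion genes, which include SECISBP2 and EEFSEC, 3 were above and 3 below, with a median of 0.02. The SECISBP2 paralog SECISBP2L stood at 0.08, and the SECIS-binding RPL30, EIF4A3 and nucleolin (NCL) at -0.26, -0.15 and 0.47 in the authors' deposited table. For NCL the authors' deposited table gave an adjusted p of 0.955 at a mean of 18219 normalised reads.

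SEPHS2 differed from the other tested selenoproteins in gene structure. It is a retrogene with a single exon, from 30443631 to 30446181 on chromosome 16, on the minus strand, and overlaps no other annotated gene. In spliced selenoprotein mRNAs a UGA ahead of the last exon junction can mark the message for nonsense-mediated decay when selenium is short. A UGA at any distance ahead of that junction was present in 12 of the 17 tested selenoproteins, with a median log2 fold change of -0.14, and 4 (TXNRD1, TXNRD3, SELENOI and SELENOO) had it in the last exon, with a median of -0.10. In GPX4 the UGA lay 342 bases ahead of the last junction, in GPX1 105 and in TXNRD2 71, while SEPHS2 has no junction. In SELENOK, SELENOS and MSRB1 it lay only 5, 13 and 34 bases ahead, closer than decay of this kind usually needs. With 1 gene of the single-exon kind, this is a description only.

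The nearest protein-coding neighbours were ZNF771, 12523 bases away, and ITGAL, 26477 bases away, both on the plus strand. ZNF771 held 243 and 206 normalised reads in control and 221 and 221 in knockdown, a log2 fold change of -0.02 in the authors' deposited table. ITGAL had a mean of 1.71 normalised reads. The genes nearest to SEPHS2 in fold change, over this 1 comparison and among genes with a mean of at least 100 normalised reads, were the mitochondrial ribosomal protein gene MRPL12 at 1.08, the cytochrome P450 gene CYP3A5 at 1.07 and RP3-368A4.5 at 1.10 in the authors' deposited table. Of these, MRPL12 held 944 and 746 normalised reads in control and 1934 and 1655 in knockdown.

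DROSHA makes most microRNAs, so the 750 bases of the SEPHS2 3′ UTR were searched, on the sense strand, for 7-base matches to the seeds of 11 microRNAs. They were picked because their host transcripts were known to be higher in the knockdown: 10 of 10 host rows were called higher in the authors' deposited table, with log2 fold changes from 0.76 for DLEU2 to 3.52 for MIR193BHG. A seed is bases 2 to 8 of a microRNA. There was 1 match, TTTGCAC for miR-19b, 299 bases after the stop codon. The microRNA is shown with its seed in capitals (RefSeq, GRCh38.p14), and the site with the paired bases in capitals (GENCODE 29).
hsa-miR-19b-3p: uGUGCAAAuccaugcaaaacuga
SEPHS2 site: gggatttttcTTTGCACggggttgatt
Among 2108 protein-coding 3′ UTRs of like length (within 20%), 6.88% held TTTGCAC. The other 10 motifs were absent from the SEPHS2 3′ UTR, and each was held by a small share of those UTRs. These were CTACCTC for let-7b (5.27%), GCACTTT for miR-17 (9.58%), GTGCAAT for miR-92a (4.03%), GGCAGCT for miR-22 (9.16%) and TGGTGCT for miR-29b (8.25%). The remaining motifs were GGCCAGT for miR-193b (4.89%), TGCTGCT for miR-16 (12.8%), ATACTGT for miR-144 (6.26%), CTGAGCC for miR-24 (11.7%) and AACTGAC for miR-223 (3.04%). TTTGCAC and GCACTTT can overlap by their shared ends. A match is a string of letters and not a measured site, and mature microRNAs were not measured here. Matches were not particular to SEPHS2. Of the 10 genes, 6 held at least 1 of the 11 motifs in the 3′ UTR and 4 held 0. The share of like-length 3′ UTRs holding any of the 11 was not computed. These counts, and the 1 match in SEPHS2, therefore cannot be called high or low. The single motifs matched in SEPHS1 were held by 9.31% to 16.3% of 3′ UTRs of like length. Those matched in EEFSEC were held by 2.54% to 5.82%. SEPHS1, which was not called, held 4 matches in 1718 bases and EEFSEC held 3 in 387, while SEPSECS, SECISBP2 and GPX1 held 1 each. No annotated microRNA hairpin lay within the extent of any of the 10 genes.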

How the data were processed

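Total RNA of 2 control and 2 DROSHA knockdown K562 libraries (an Illumina TruSeq stranded kit) was compared by the submitters. The authors used DESeq2 1.24.0, STAR 2.6.0a and Bowtie2 2.3.4.1 with build hg38, per the submitters' processing notes. The sources used here do not give the gene counter, strand setting or annotation. The authors deposited a signal (mean of read counts divided by size factors over the 4 libraries), an adjusted p-value and a log2 fold change for each gene, per the file headers, and 0 columns for single libraries. All log2 fold changes and adjusted p-values in the report are the authors', at a threshold of 0.05. A further deposited log2 column has no stated assay and was not used.

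Reads per library were recovered here. Of 2814 distinct low means, 2814 were whole-read sums of 4 steps, which give the size factors. Whole reads were then searched that gave a gene's mean to its 15th digit and its fold change. Of 10593 tested genes with a mean up to 2500 normalised reads, 10574 had exactly 1 solution (libraries allowed up to 50% from their group mean, 30% above that level). Of 400 means shifted slightly, 1 had one. There were 464 genes with an unshared p that could be reproduced from their recovered reads. For all of these, the fold change computed from the reads and that p lay within 1e-04 of the deposited one. Reads had been kept only where they could give the deposited fold change, so this check was partly fixed in advance. With 3 sets of simulated size factors, 296, 299 and 300 of 300 genes with means in that range were recovered exactly, and 20, 19 and 20 of 20 with larger means, with 0 single wrong solutions in each. Libraries were assigned to groups by the sign of the authors' fold change and could not be tied to replicate numbers. An implied standard error came from undoing the Benjamini-Hochberg adjustment. Precision is limited by 2 libraries a group, and SDs over 2 values are rough.

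Genes were matched by Ensembl ID, since several selenoproteins were listed under earlier symbols, such as SEPW1 for SELENOW and SEPP1 for SELENOP. A further symbol, that of SELENOF, had become a date in the table. Of the listed K562 markers, 1 is not reported here. The selenocysteine tRNA gene was not matched and is not analysed here, nor is miR-451a. Members, lists and named genes were chosen with earlier results of these data known. All 10 genes, every synthesis, insertion and selenoprotein gene, and of other lists the called, highest and lowest genes were named. Python 3.11.15, numpy 2.4.6, pandas 2.3.3, scipy 1.17.1 and Biopython 1.88 were used, with GENCODE 29.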

Additional observations from a re-analysis of the deposited data

How the results depend on the processing

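SEPHS2 stayed called at adjusted p thresholds of 0.01 and 0.1 and with a log2 fold change of at least 1 also required. At its adjusted p of 4.5e-10 and log2 fold change of 1.08 in the authors' deposited table, these settings could not undo the call. It also stayed called with Bonferroni adjustment of the p implied by the authors' test (p = 4.0e-09). The same held among genes with a mean of at least 100 normalised reads. All of these settings reuse the deposited fold change, so its direction could not change in them. Its log2 fold change was 1.11 when centred on the median gene, 1.10 when scaled by the median ratio over protein-coding genes, 1.08 with a pseudocount of 1, and 1.04 to 1.12 with each library left out (values with no test). The counts of called members and selenoproteins, 1 higher and 0 lower in each set, were the same under the 5 test settings. None of the other 8 tested genes was called under them. Of the 8 genes with recovered reads, 3 (SEPHS1, SEPSECS and SECISBP2) changed sign when a library was left out. No paired analysis was possible because the recovered libraries carry no replicate numbers. Upper-quartile scaling was not run. GPX1, DIO1, DIO3 and SELENOV had no adjusted p, and the cause of their low counts was not tested.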

Other observations

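Other antioxidant genes were examined beside the selenoproteins. Of 23 tested thioredoxin, glutathione and related genes, 1 was called higher and 0 were called lower. Of the 23, 4 were above 0 and 19 below, with a median log2 fold change of -0.09. Over all tested genes 0.330% were called higher and 0.0211% lower, 45.1% were above 0 and the median was -0.03. The called gene, TXN2, the mitochondrial thioredoxin that TXNRD2 reduces, rose by 0.80 (adjusted p = 0.011 by the authors' deposited table). It held 1600.4 and 1361 normalised reads in control and 2100.3 and 3061 in knockdown, so the shallower knockdown library was well above the deeper one. Without that library the log2 fold change was 0.50, and without the deeper knockdown library it was 1.05. PRDX6, a peroxiredoxin, stood lowest at -0.30 (adjusted p = 0.585 by the authors' deposited table). HMOX1, a gene induced by heme and oxidants, had a mean of only 0.272 normalised reads.

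Of 8 tested genes of lipid peroxidation and ferroptosis, the cell death that GPX4 holds back, 0 were called and the median was 0.05. AIFM2, which protects lipids beside GPX4, was highest at 0.43 (adjusted p = 0.512), with 667 and 612 normalised reads in control and 847 and 873 in knockdown, and TFRC was lowest at -0.19 in the authors' deposited table. Of 4 tested genes of selenium or cystine uptake and binding, 0 were called. The cystine transporter SLC7A11 was highest at 0.25 and the selenium-binding SELENBP1 lowest at -0.10 in the authors' deposited table. LRP8, a receptor for SELENOP, stood at -0.0067 there. Of 3 tested homologs without selenocysteine, 0 were called, and MSRB2 at 0.02 and SEPHS1 at 0.10 were the lowest and highest in the authors' deposited table. Among all tested genes 0.330% were called higher and 0.0211% lower, so 0 calls says little about lists this short.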
